A study of Rattus norvegicus with 13 samples.

Results

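This section compares meiotic DNA double-strand breaks (DSBs) in testes of SHR rats with 1 functional copy of Prdm9 and in testes with none, and covers 2 of the 13 samples of the series. Both are DMC1 libraries from adult testis of the inbred strain SHR/OlaIpcv (the spontaneously hypertensive rat), labelled Prdm9+/- (here KO/wt) and Prdm9-/- (here KO/KO). Wild-type adult testes of SHR/OlaIpcv, of the related strain WKY, which carries the same Prdm9 allele, and of BN/RIJHsd, which carries a distinct allele, were used as references. Each genotype or strain had 1 library, so that no difference between them has a replicate check and no p-value is given. According to the study the KO/KO library came from a male homozygous for the KO39 deletion. The deletion carried by the KO/wt male is not given in the sources used here, and nothing in them says that tissue of more than 1 animal was pooled.

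PRDM9 is a histone methyltransferase with a zinc-finger array. It binds DNA motifs in meiotic cells and deposits methyl marks on nearby histone H3, and the SPO11 complex then cuts close to these marks. Where PRDM9 is lacking, as in mutant mice or naturally in dogs, breaks go to so-called default sites, which are mostly promoters and other places with H3K4me3 made by other enzymes. DMC1 is the meiotic recombinase that coats the single-stranded DNA at a resected break. Sequencing of the single-stranded DNA recovered with a DMC1 antibody (SSDS) therefore maps the breaks. The signal of a hotspot depends on how often it is cut and on how long DMC1 stays there, which cannot be told apart here.

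The deletion matters for reading the KO/KO library, since it bears on what is left of the protein. By Western blot of juvenile testes homozygous for KO39 the study detected no PRDM9, either whole or truncated. In the sequenced testis cDNA the KO39 transcript lacked 29 bases of an exon of the PR/SET domain, which is not a multiple of 3 (the remainder is 2), so that the reading frame shifts ahead of the zinc fingers. Both cDNAs are printed from the same 40 bases before the deletion, with the missing bases in capitals.
Wild-type SHR: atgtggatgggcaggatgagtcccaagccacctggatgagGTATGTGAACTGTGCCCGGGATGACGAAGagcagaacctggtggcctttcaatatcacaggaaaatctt
KO39: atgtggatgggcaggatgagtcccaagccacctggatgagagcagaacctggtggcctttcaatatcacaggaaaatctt

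The deposited table gives, for 91120 windows on the 20 autosomes of rn5, a hotspot strength in each library and a mark for a called hotspot. Strength is a whole number of unknown scaling that can be negative. It was set to 0 where negative and divided by the autosomal sum of the library, which was 3375943 in KO/wt and 4020474 in KO/KO. The depth in reads is unknown, so that a share of strength has no counting interval and is given with its SD over the 20 chromosomes, which are not replicates. Windows with a strength of 40 or more in KO/KO and of 15 or less in wild-type SHR were named default windows, and 24758 windows met this rule. Windows with a strength of 40 or more in wild-type SHR were named PRDM9 windows, and there were 18265 of these. The other 48097 windows fell in neither class. The KO/KO strength of default windows and the wild-type SHR strength of both classes were thus fixed by the choice, and are described without being read as results. KO/wt, WKY and BN values and the KO/KO values of PRDM9 windows were not used in it.

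Strengths changed smoothly across the limits. Median KO/wt strength was 6 in the 1913 windows of KO/KO strength 40 to 44 just inside the default class and 5 in the 2088 windows of strength 35 to 39 just outside. It was 17 in the 1635 windows of wild-type strength 11 to 15, which are in the class, and 23 in the 609 windows of strength 16 to 20, which are not. For PRDM9 windows the medians were 33 inside (wild-type strength 40 to 44) and 28 outside (35 to 39).

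With 1 copy of Prdm9 most DMC1 signal lay where it lies in the wild type. PRDM9 windows held 75.2% ± 4.13 (SD over 20 chromosomes) of KO/wt strength, and from 63.7 to 79.9% on single chromosomes. In KO/KO they held 3.69% ± 1.08, from 2.04 to 5.89%. The ranges of the chromosomes did not overlap. For reference, PRDM9 windows held 80.8% in wild-type SHR, where they were chosen, 62.7% in WKY and 9.68% in BN. Hotspots were called in 14522 of the 18265 PRDM9 windows in KO/wt, or 79.5% (Wilson 95% interval 78.9 to 80.1%), when 21.6% of all autosomal windows carried a KO/wt call. In KO/KO 343 of them were called, 1.88% (1.69 to 2.09%), against 38.8% of all windows. This is not above the 2.93% (2.69 to 3.18%) called in BN, whose PRDM9 recognises other sites, against 20.8% of all windows. PRDM9 windows were thus nearly silent in the library labelled Prdm9-/- and active in that labelled Prdm9+/-.

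**Figure D1:**
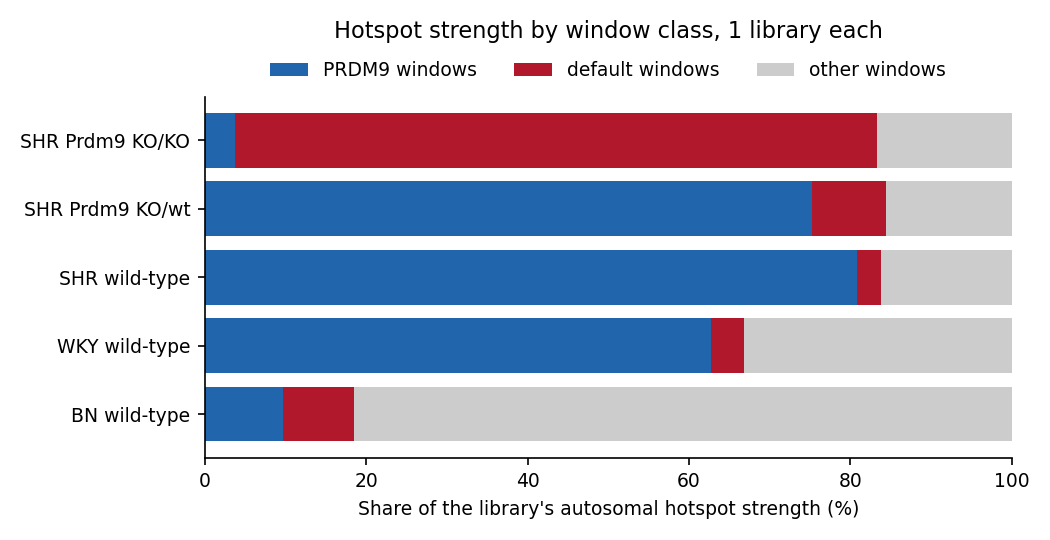
Share of the autosomal hotspot strength of each library (x axis, percent) in PRDM9 windows (blue), default windows (red) and other windows (grey), with 1 bar for each of the 5 libraries. PRDM9 windows hold 75.2% in KO/wt and 3.69% in KO/KO, and the default share of KO/wt, 9.16%, is close to that of BN, 8.81%.

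Default windows held 9.16% ± 2.89 of KO/wt strength, from 6.07 to 17.9% on single chromosomes. The KO/KO library, which defined them, had 79.6% there. The wild-type SHR library, held low by the rule, had 3.02%, WKY had 4.13% and BN had 8.81%. The KO/wt share differed from that of BN, with another PRDM9 allele, by less than the SD over chromosomes. That SD is not the error of a difference between libraries, and whether the shares differ was not tested. KO/wt exceeded WKY on 20 of 20 chromosomes and BN on 14 of 20. Low strength spread over all windows enters these shares. In the 18213 windows called in BN alone, the 3 SHR libraries had mean strengths of 4.92 (KO/wt), 3.75 (KO/KO) and 3.06 (wild type). After this level was subtracted, with negative values kept, default windows held 6.06% ± 2.65 of KO/wt strength. All 3 references had values below 0 (-0.99% for SHR, -3.35% for WKY and -3.50% for BN, with windows called in WKY alone as its reference). The level subtracted was 31.6 in WKY and 11.7 in BN, above their mean strengths in default windows of 18.4 and 9.29. In wild-type SHR, bounded by the rule, that mean was 2.10. The values below 0 follow from this and give no measure of default use in the references.

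Hotspot calls separated the libraries more than strength did. In KO/wt 1868 of the 24758 default windows were called, 7.55% (7.22 to 7.88%), which is below the 21.6% over all autosomal windows. BN had calls in 342 of the same windows, 1.38% (1.24 to 1.53%), and WKY in 118, 0.477% (0.398 to 0.570%). Over all autosomal windows BN called 20.8% and WKY 38.3%. Wild-type SHR called 15 default windows, a number that the rule keeps low, against 21.8% of all windows. To remove that column from the choice, windows of KO/KO strength 40 or more without a WKY call were also taken. WKY carries the same Prdm9 allele as SHR, so that this choice also keeps calls in wild-type SHR low. Of the 25880 windows so taken, 8.85% (8.51 to 9.20%) were called in KO/wt. In SHR of the wild type 0.568% (0.483 to 0.667%) were called, and in BN 1.55% (1.41 to 1.71%). These intervals cover the counting of windows within a library only, and 3858 of the 24758 default windows overlap another window and share signal with it.

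KO/wt strength at default windows was higher the stronger the window was in KO/KO. When they were ranked by KO/KO strength in 10 groups, mean KO/wt strength was 5.78 in the weakest group (KO/KO strength 40 to 46) and 30.7 in the strongest (258 to 1685). KO/wt calls were made in 14 of 2592 windows of the weakest group, 0.540% (0.322 to 0.905%). They were made in 389 of 2488 windows of the ninth group, 15.6% (14.3 to 17.1%), and in 971 of 2463 windows of the strongest, 39.4% (37.5 to 41.4%). Calls in BN and WKY lacked such a rise. BN had 1.47% called in the weakest and 1.46% in the strongest group, and WKY had 0.656 and 0.162%. Mean normalised strength per window, scaled to a sum of 1000000 per library, was 1.92 and 9.23 in these groups for KO/wt, 3.53 and 4.04 for BN, and 1.67 and 1.65 for WKY. Wild-type SHR, whose values the rule bounds, had 0.96 and 1.88. As a percentage of KO/KO strength, normalised KO/wt strength was 18.0% for the weakest windows and 9.29% for the strongest. With the level at BN sites subtracted from both libraries the order turned, with 2.75 and 8.18%, so that the direction of this ratio depends on the diffuse level.

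**Figure D2:**
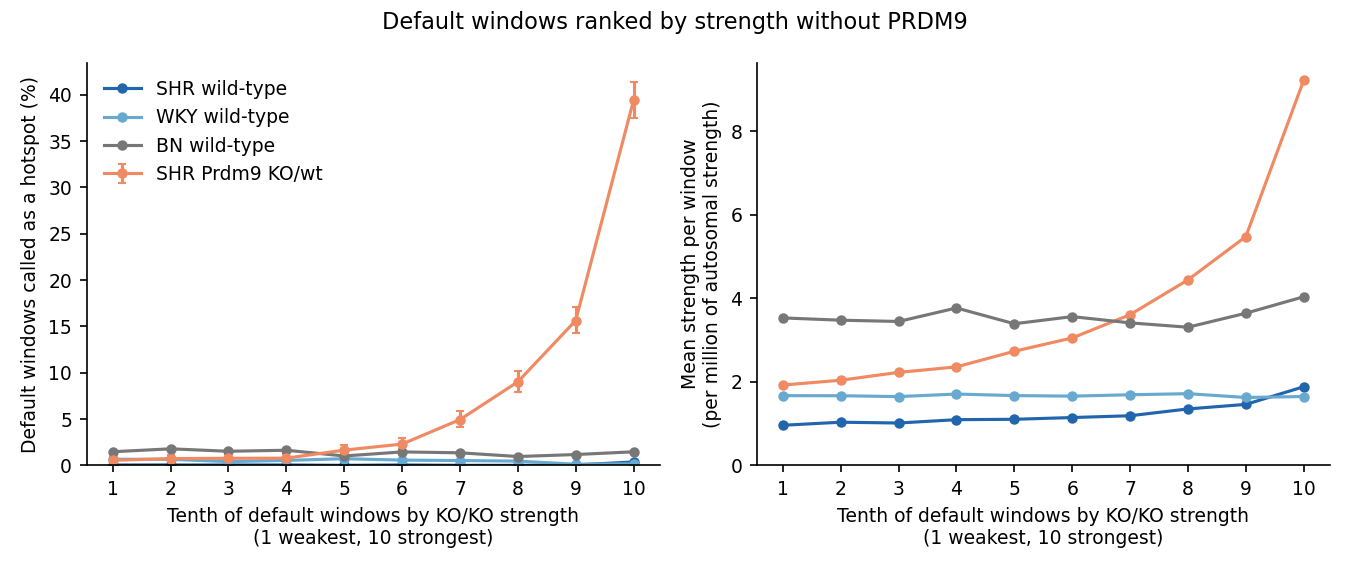
Default windows in 10 groups by KO/KO strength (x axis, 1 weakest to 10 strongest). The left panel gives the percent of windows called as hotspots in KO/wt (with Wilson 95% intervals), wild-type SHR, WKY and BN, and the right panel the mean strength per window, scaled to a sum of 1000000 per library. KO/wt reaches 39.4% and 9.23 in the strongest group, where BN has 1.46% and 4.04.

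Few default windows were strong in KO/wt. A strength of 40 or more was reached in 956 of them (3.86%) in KO/wt and in 499 in BN, and a strength of 100 or more in 33 in KO/wt. The 95th percentile of strength in default windows was 36 in KO/wt, 22 in BN and 50 in WKY. These strengths are not normalised, and the autosomal sums were 3375943, 2827729 and 12771894 in the same order. The share of all windows that reach 40 was not computed. The highest KO/wt strength in a default window was 163, when PRDM9 windows reached 10158. The 1868 called windows had a median strength of 36 in KO/wt and of 265 in KO/KO, against 85 in KO/KO for default windows without a KO/wt call. They held 2.26% of the KO/wt library. The 2475 default windows strongest in KO/KO held 24.9% of the KO/wt strength of the class and 30.8% of its KO/KO strength, but 11.3% in BN and 9.87% in WKY.

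Single windows show the range, with coordinates of rn5 as deposited and strengths before normalisation. The default window strongest in KO/wt, chr6:21741074-21744074, had 163 in KO/wt, 577 in KO/KO and, among the references, 15 (SHR), -14 (WKY) and 7 (BN), and was called in both mutant libraries only. The next, chr2:277664934-277667934, had 136 in KO/wt, 620 in KO/KO and, among the references, 14 (SHR), 30 (WKY) and 36 (BN). Both overlap no other window. In each of them KO/wt lay below KO/KO. Their place above the references is shaped by picking the highest KO/wt strengths in a class that bounds wild-type SHR.

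The default window strongest in KO/KO was not among these. At chr3:52440317-52443317 the values were 49 in KO/wt, 1685 in KO/KO and, among the references, 12 (SHR), 15 (WKY) and 10 (BN). At chr17:29247334-29250334 it was 1334 in KO/KO, 118 in KO/wt and, among the references, 14 (SHR), 18 (WKY) and 13 (BN). Both were called in KO/wt. Normalised to a sum of 1000000 per library, the former had 14.5 in KO/wt and 419 in KO/KO, and the latter 34.95 and 332.

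A KO/wt strength of 0 or less was found in 2035 default windows (8.22%), in 15.4% of the 48097 other windows and in 0.0931% of PRDM9 windows. Of the 2035 windows 546 (26.8%) overlap another window, against 15.6% of all default windows. Within 5 kb of a PRDM9 window lay 352 of the 2035, and 1407 of all 24758 default windows. The strongest of the 2035 in KO/KO, chr18:26497165-26500165, had 729 in KO/KO, -13 in KO/wt and, among the references, -117 (SHR), -305 (WKY) and 11 (BN). Its centre lay 0.943 kb from that of a PRDM9 window that it overlaps. A pair on chromosome 2 shows the limit of overlapping windows. The window chr2:76897872-76900872 had a KO/wt strength of 131 without a call, and chr2:76896860-76899860, which overlaps it, had -6 with a call. Strengths and marks of overlapping windows are thus uncertain.

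PRDM9 windows in KO/wt followed the wild type in rank. In 10 groups by wild-type strength, median KO/wt strength was 34 for the weakest windows (40 to 45) and 424 for the strongest (240 to 7282). The share called in KO/wt was 49.3% (47.1 to 51.6%) and 92.4% (91.1 to 93.5%). Median KO/KO strength was between 3 and 5 in all 10 groups. KO/KO calls were at 2.02% in the weakest group, at most at 2.87% in the others and at 0.603% in the strongest. The window strongest in KO/wt, chr3:53458839-53461839, had 10158 in KO/wt, 44 in KO/KO and, among the references, 6649 (SHR), 26104 (WKY) and 9 (BN). The next, chr1:153211965-153214965, had 9559 in KO/wt, 46 in KO/KO and, among the references, 7282 (SHR), 13250 (WKY) and -4 (BN). Both were called in KO/wt, wild-type SHR and WKY and not in KO/KO.

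Few PRDM9 windows were also strong without PRDM9. Of the PRDM9 windows 561 (3.07%) had a KO/KO strength of 40 or more, and 17032 (93.2%) were below 15. Default windows, which all reach 40 in KO/KO, were 27.2% of the autosomal windows. A further 1127 of the 48097 other windows reached 40 in KO/KO, with a wild-type SHR strength above 15 and below 40. The number of windows active in both thus depends on the limit in wild-type SHR. In the 561 windows normalised KO/wt strength was 1.20 times that of wild-type SHR, against 0.914 in the 17032. KO/wt exceeded wild-type SHR in 374 of the 561 windows (66.7%) and in 28.2% of the 17032. WKY, compared with the same wild-type SHR column, had ratios of 0.676 and 0.787. Of the 561 windows 65.6% overlap another window, but in the 193 that overlap none the KO/wt ratio was 1.23. The strongest in KO/KO, chr14:107870145-107873145, had 1561 in KO/KO, 525 in KO/wt and, among the references, 109 (SHR), 180 (WKY) and 63 (BN). At chr16:2520045-2523045 the values were 235 in KO/wt, 872 in KO/KO and, among the references, 54 (SHR), 40 (WKY) and 16 (BN). At chr14:105681197-105684197 it was 799 in KO/KO, 171 in KO/wt and, among the references, 40 (SHR), 31 (WKY) and -5 (BN). In all 3 KO/wt lay between the mutant without PRDM9 and the wild types. The windows were picked for high KO/KO strength, so that the place of KO/KO at the top is set by the choice.

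Window by window, normalised strength was compared after raising lower values to 15, in the 64227 windows of 15 or more in either library. It was at least 2-fold higher in KO/KO in 42.1% and at least 2-fold higher in KO/wt in 32.2% of them. Of the 17910 PRDM9 windows tested, 16366 (91.4%) were higher in KO/wt by this measure and 58 in KO/KO. Default windows were higher in KO/KO in 24471 of 24758 cases and in KO/wt in 0, which the rule largely fixes. In the other windows KO/wt was higher in 4315 and KO/KO in 2494 of 21559 tested, which the rule also shapes, since it left 1127 of the 48097 other windows with a KO/KO strength of 40 or more. Hotspot calls in the 48097 other windows ran the other way, with 10974 in KO/KO (22.8%) and 3253 in KO/wt (6.76%). Over all autosomal windows KO/KO called 38.8% and KO/wt 21.6%, so that both called other windows less often than all windows.

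Use of default windows in KO/wt depended on the position along the chromosome. Each autosome was divided into 10 segments of equal length up to the end of its last window. In segment 1, 312 of 1926 default windows were called in KO/wt, 16.2% (14.6 to 17.9%). In segment 5 this held for 59 of 1963, 3.01% (2.34 to 3.86%). In segment 10 it held for 409 of 3372, 12.1% (11.1 to 13.3%). Normalised KO/wt strength in default windows was 16.4% of the KO/KO strength in segment 1, 8.53% in segment 5 and 16.0% in segment 10. The called share declined over segments 1 to 5 and rose again over segments 5 to 10.

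The strength of the default windows in KO/KO did not follow the same course. Segments 1 and 10 together (the ends) were set against segments 5 and 6 (the middle). Median KO/KO strength was 86 at the ends and 91 in the middle, and median KO/wt strength was 12 and 7. Hotspots were called in KO/wt in 721 of 5298 default windows at the ends, 13.6% (12.7 to 14.6%), and in 142 of 4127 in the middle, 3.44% (2.93 to 4.04%). In the strongest group of 10 by KO/KO strength, 273 of 466 windows at the ends (58.6%, 54.1 to 63.0%) and 105 of 442 in the middle (23.8%, 20.02 to 27.9%) were called, with median KO/KO strengths of 345 and 353.5. In default windows that overlap no other, 11.8% were called at the ends and 2.69% in the middle. After subtraction of the level at BN sites KO/wt strength was 12.0% of KO/KO strength at the ends and 3.71% in the middle.

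In the references few default windows were called in either place. BN called 1.51% (1.22 to 1.88%) of default windows at the ends and 1.62% (1.28 to 2.06%) in the middle. WKY called 0.774% (0.571 to 1.05%) and 0.339% (0.202 to 0.569%), so that its called share, though low, was also higher at the ends. Mean strength of default windows was 16.1 at the ends and 8.75 in the middle in KO/wt, a ratio of 1.84. Wild-type SHR, bounded by the rule, had 2.70 and 1.61, a ratio of 1.67 that is close to that of KO/wt. The ratio was 1.20 in WKY (20.6 and 17.2), 0.990 in BN and 0.911 in KO/KO. Higher mean strength at the ends was thus shared with wild-type SHR and, to a smaller degree, with WKY, and whether the relative rise differed between KO/wt and wild-type SHR was not tested.

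PRDM9 windows showed the opposite course in KO/wt relative to wild-type SHR. At the ends normalised KO/wt strength was 0.807 times that of wild-type SHR, and in the middle 0.998 times. Median KO/wt strength was 72 and 91 there, when the wild-type median was 85 in both places. PRDM9 windows were called in KO/wt in 75.1% at the ends and 81.0% in the middle. WKY over the same wild-type SHR values gave 0.730 and 0.716. By single segment it was not level, with 0.680 in segment 1, 0.686 in segment 6 and 0.902 in segment 8. KO/wt over wild-type SHR ran from 0.802 in segment 10 to 1.01 in segment 7. Ratios to the wild-type SHR library thus varied by position in WKY as well. PRDM9 windows were also taken from WKY calls in place of the wild-type SHR strength. The ratio of KO/wt to wild-type SHR at the ends was then 0.811 times that in the middle, against 0.808 with the classes used here.

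**Figure D3:**
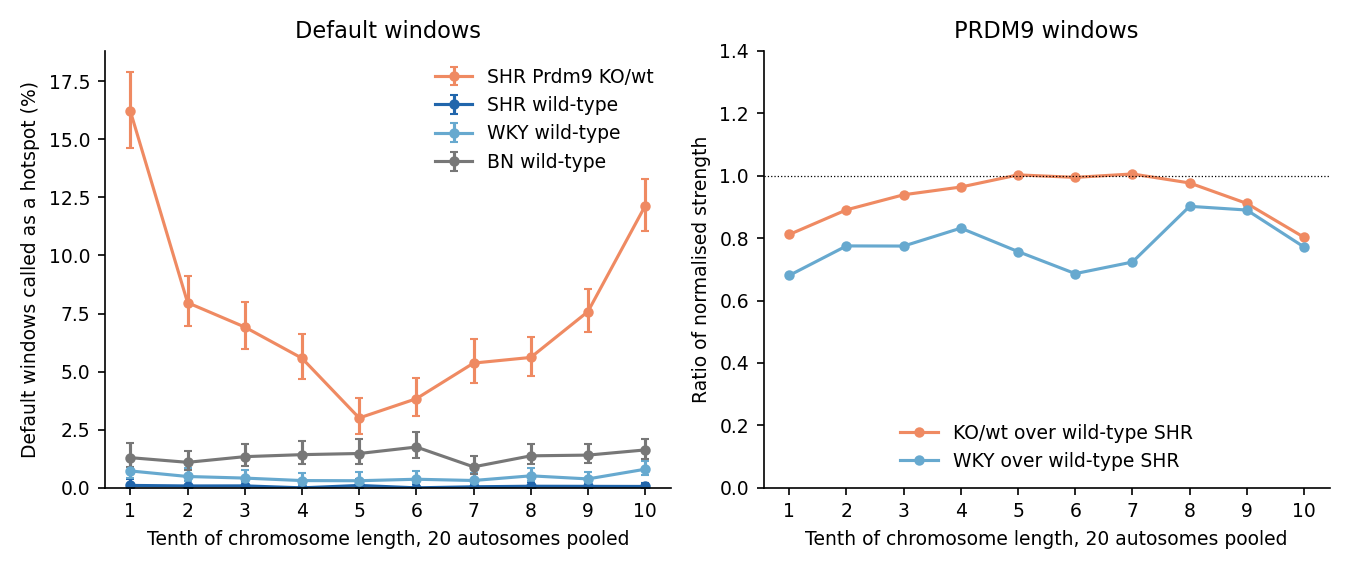
The x axis of both panels is the position along the chromosome in 10 segments of equal length, with 20 autosomes pooled. The left panel gives the percent of default windows called in each library with Wilson 95% intervals, at 16.2% in segment 1, 3.01% in segment 5 and 12.1% in segment 10 for KO/wt, and the right panel the normalised strength of PRDM9 windows in KO/wt (0.812, 1.00 and 0.802 in the same segments) and in WKY as a ratio to wild-type SHR.

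Both courses were seen chromosome by chromosome. KO/wt strength in default windows, as a percentage of KO/KO strength, was higher at the ends than in the middle on 20 of 20 autosomes, by 7.57 ± 3.93 percentage points (mean ± SD over chromosomes). The ratio of PRDM9-window strength, KO/wt over wild-type SHR, was lower at the ends on 20 of 20. For WKY over wild-type SHR this held on 11 of 20, and for KO/wt over WKY on 15 of 20. The called share of default windows was higher at the ends on 17 of 20 autosomes, the exceptions being chromosomes 12, 13 and 19. It ranged from 4.50 to 29.2% at the ends and from 0 to 8.50% in the middle. Chromosome 14 had the highest value at the ends, with 99 of 339 default windows called, and 1 of 92 called in the middle. Its ratio of KO/wt to KO/KO strength was 24.2% at the ends and 7.70% in the middle. Both ends did not always take part, since on chromosome 1 segment 1 had 29.0% and segment 10 had 2.08% of default windows called, and on chromosome 9 the values were 4.84 and 27.1%.

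**Figure D4:**
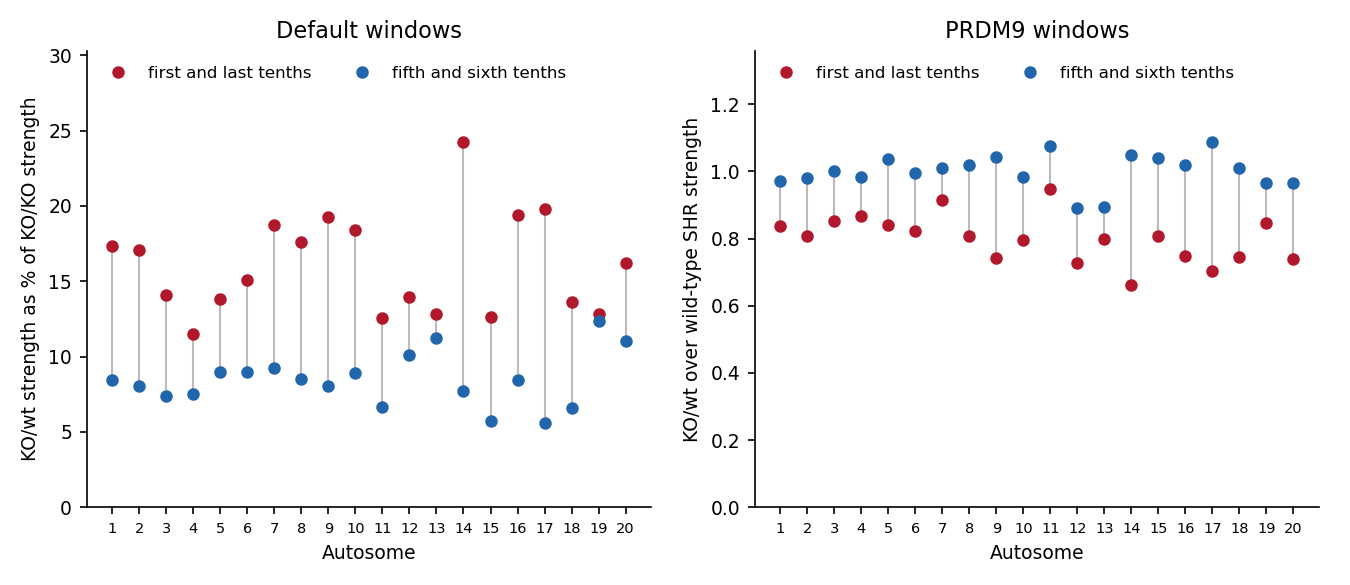
Ends (segments 1 and 10, red) and middle (segments 5 and 6, blue) of each of the 20 autosomes on the x axis. The left panel gives KO/wt strength in default windows as a percentage of KO/KO strength, higher at the ends on 20 of 20, and the right panel gives the ratio of KO/wt to wild-type SHR strength in PRDM9 windows, lower at the ends on 20 of 20.

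Distance in megabases gave the same order except for the outermost class. Within 5 Mb of a chromosome end 11.6% (10.1 to 13.3%) of 1552 default windows were called in KO/wt. At 5 to 10 Mb it was 15.8% (14.4 to 17.4%) of 2357, at 10 to 20 Mb 9.91% (9.08 to 10.8%) of 4540, at 20 to 40 Mb 6.78% (6.23 to 7.38%) of 7342, and beyond 40 Mb 4.09% (3.70 to 4.52%) of 8967. The ratio of KO/wt to wild-type SHR in PRDM9 windows was 0.802, 0.804, 0.844, 0.938 and 0.993 in these classes. With WKY as the reference it was 1.44, 0.931, 0.970, 1.15 and 1.31, and thus highest in the outermost class. WKY over wild-type SHR was 0.557, 0.864, 0.870, 0.816 and 0.757. The course by distance in PRDM9 windows therefore depends on the reference library.

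Whole chromosomes differed in the same way in several libraries. The default share of KO/wt strength was highest on chromosome 20 (17.9%) and chromosome 19 (15.4%) and lowest on chromosome 1 (6.07%) and chromosome 3 (7.11%). Chromosome 20 had 2.35 default windows for each PRDM9 window and chromosome 1 had 1.09. Across the 20 chromosomes the KO/wt share had a Spearman rho of 0.835 with this number and of 0.898 with the BN share of the same windows, which share the window list. The order of chromosomes by share was therefore not particular to KO/wt. The called share ran from 3.76% on chromosome 4 to 14.9% (13.0 to 17.1%) on chromosome 14 in KO/wt and was above BN on 20 of 20 chromosomes, where BN had 0.575 to 2.03%. Normalised KO/wt strength in default windows was 11.5% of KO/KO strength over all autosomes, from 8.93% on chromosome 4 to 14.5% on chromosome 19.

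Of the 541 bins of 5 Mb, 498 held at least 10 windows of each class. The default share of KO/wt strength in these ran from 0.489 to 49.0% with a median of 7.70% (quartiles 5.03 and 12.5%), and 46 bins were above 20%. The highest were chromosome 20 from 20 to 25 Mb (49.0%, with 139 default and 24 PRDM9 windows) and from 15 to 20 Mb (36.4%), and chromosome 3 from 170 to 175 Mb (32.3%). In the first of these the default share was 22.3% for BN, 13.3% for WKY, 16.8% for SHR and 83.9% for KO/KO. The lowest was chromosome 1 from 185 to 190 Mb (0.489%), with 10 default and 36 PRDM9 windows. KO/wt exceeded WKY in 453 bins and BN in 245 of the 498.

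Across the 541 bins default strength in KO/wt and in KO/KO had a Spearman rho of 0.894. BN had 0.884 and WKY 0.898 with KO/KO, and the number of default windows alone had 0.947, so that this relation follows how many windows a bin holds. For the mean strength per default window, in the 456 bins with 20 or more, rho with KO/KO was 0.372 for KO/wt and 0.271, 0.142 and 0.0624 for wild-type SHR, BN and WKY. Summed over all windows of a bin, KO/wt had a rho of 0.961 with wild-type SHR and of 0.636 with KO/KO. These are descriptions over bins of the same libraries.

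**Figure D5:**
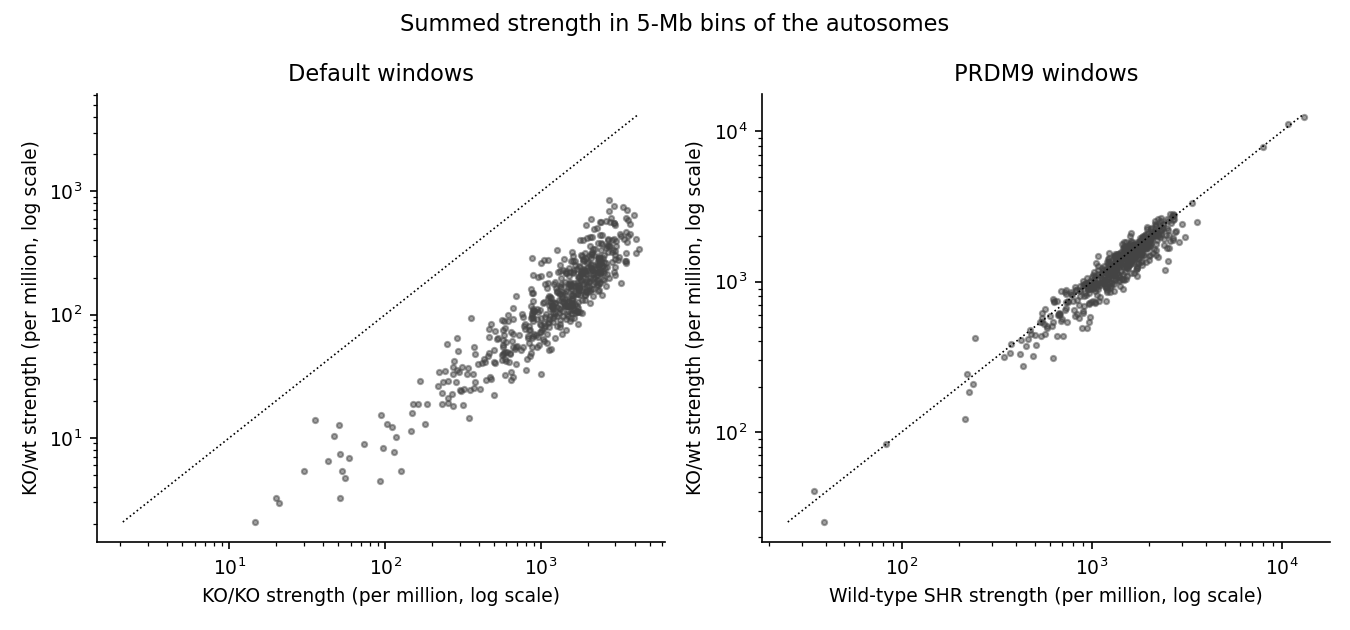
Each point is a 5-Mb bin of the autosomes, on log axes and scaled to an autosomal sum of 1000000. The left panel sets KO/wt against KO/KO strength in default windows (537 bins, all below the dotted line of equality), and the right panel KO/wt against wild-type SHR strength in PRDM9 windows (535 bins, 356 below the line); bins at 0 are left out.

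Default windows near PRDM9 windows were compared with those farther away. Normalised KO/wt strength was 11.3% ± 1.501 (SD over chromosomes) of KO/KO strength in the 13201 default windows within 50 kb of a PRDM9 window and 11.8% ± 1.47 in the 11557 farther away. Hotspots were called in 7.62% (7.18 to 8.09%) and 7.46% (6.99 to 7.95%) of them. The difference in called share was smaller than the counting interval. The SD over chromosomes is not the error of a difference within chromosomes, and whether the ratios differ was not tested. With the level at BN sites subtracted the ratios were 6.57 and 7.59%. In finer classes the ratio without subtraction was 10.8% within 5 kb and increased in each class out to 12.1% at 200 to 500 kb. The windows within 5 kb stood apart in mean KO/wt strength with negative values kept, with 5.18 in 1407 windows against 12.0 to 12.6 in the classes from 5 to 500 kb. Their median KO/wt strength was 7 against 9 to 10 in those classes. Of them 8.10% (6.79 to 9.64%) were called in KO/wt, against 6.78 to 7.88%. Mean strength within 5 kb was below 0 in wild-type SHR (-6.24) and in WKY (-7.63), and 53.1% of these windows overlap another. Bins were also divided into 4 groups by their KO/wt strength in PRDM9 windows. From the lowest to the highest group KO/wt strength in default windows was 13.0, 12.6, 10.7 and 10.4% of KO/KO strength, and 7.58, 8.40, 7.04 and 7.23% of default windows were called.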

How the data were processed

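DMC1 SSDS was made from adult testes, with 1 library per genotype or strain. Per the labels' processing notes the authors used BWA 0.7.12, bedtools 2.23.0, MACS2 2.1.0.20150420 and the rn5 build, and per the study's methods they called hotspots from single-stranded fragments. The deposited strength is a score whose definition and scaling are not given in the sources used here, and the deposited marks of other kind are 1 or 0 for a called hotspot. Windows were mostly 3000 bp long.

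Strengths below 0 (6941 autosomal windows in KO/wt, 11049 in KO/KO) were set to 0 and each library was divided by its autosomal sum. Percentages of windows have Wilson 95% intervals, which cover counting error only. Named windows were the strongest of each class in KO/wt or KO/KO, the strongest with a KO/wt strength of 0 or less, and the extreme bins and chromosomes. The window classes, rules and comparisons were chosen with earlier results of these data known, and the chromosome segments were added after the data were seen. Python 3.11.15, numpy 2.4.6, pandas 2.3.3, scipy 1.17.1, statsmodels 0.14.6 and matplotlib 3.10.9 were used. The functions were tested on a simulated table of 20000 windows, and 9 of 9 known answers were recovered. H3K4me3 and input libraries and gene annotation were not used here.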

Additional observations from a re-analysis of the deposited data

Results flagged for a closer look

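Chromosome X was outside the comparisons above and was looked at as a further set of windows. Of its 1010 default windows, chosen by the same rule, 219 were called as hotspots in KO/wt, 21.7% (Wilson 95% interval 19.3 to 24.3%). In the wild-type libraries 8 of them were called in SHR (0.792%), 9 in WKY (0.891%) and 31 in BN (3.07%). Of all 5520 X windows 32.2% were called in KO/wt, and the wild-type libraries had 30.6% (SHR), 42.6% (WKY) and 32.4% (BN), so that the KO/wt share of default windows lay below its share of all X windows. On autosomes KO/wt calls were made in 7.55% of default windows and 21.6% of all windows. Median strength in the X default windows was 14 in KO/wt and 192.5 in KO/KO, against 9 and 90 on autosomes. The X is present in a single copy in males, and the part of this in the difference was not tested.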

How the results depend on the processing

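Of 101 values under other settings, 59 moved by less than the spread over chromosomes (shares, ratios and the correlation), by less than the counting interval (called windows) or by under 1.5 times (counts), and 42 moved further. In 0 of them did a sign change. This was largely fixed in advance, since shares, counts and ratios of strengths set to 0 where negative cannot fall below 0. The ratio of chromosome ends to middle for KO/wt over KO/KO strength in default windows was 1.90 and lay between 1.71 and 2.02 apart from 2 settings (5.22 with called windows only, 3.23 with the BN level subtracted). For KO/wt over wild-type SHR strength in PRDM9 windows it was 0.808 and lay between 0.785 and 0.811.

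With default windows from a KO/KO strength of 20, their share of KO/KO strength was 86.1%, 5.69% were called in KO/wt and the highest chromosome share of KO/wt was 21.1%. From a strength of 80 these were 64.7, 12.6 and 12.5%. With a wild-type limit of 5 they were 54.2, 5.14 and 11.7%, and the default share of KO/wt strength was 5.94%. PRDM9 windows from a wild-type strength of 80 held 61.9% of KO/wt and 1.94% of KO/KO strength. With classes from hotspot marks the PRDM9 share of KO/wt was 70.9%, the default share of KO/KO 87.2%, the called share 5.02%, KO/wt per KO/KO strength near PRDM9 windows 13.9% and the highest chromosome share 22.7%. In windows that overlap no other 6.06% were called. Without the strongest 1% of each library the called share was 6.05%, the PRDM9 share of KO/wt 68.2% and the ratio near PRDM9 windows 13.7%.

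With called windows only, default windows held 3.06% of KO/wt and 85.6% of KO/KO strength and PRDM9 windows 91.1 and 1.04%. The bin correlation was then 0.69, the ratio near PRDM9 windows 3.55% and the highest chromosome share 7.47%. The last 2 settings were chosen after the data were seen. With classes made without the wild-type SHR column the default and PRDM9 shares of KO/KO were 85.9 and 5.09%, the called share 8.85%, the ratio near PRDM9 windows 13.5% and the highest chromosome share 21.8%. With the BN level subtracted the default shares of KO/wt and KO/KO were 6.06 and 86.1%, the PRDM9 shares 85.1 and 1.67%, the bin correlation 0.76, the ratio near PRDM9 windows 6.57% and the highest chromosome share 13.9%. The thresholds and the treatment of diffuse strength are part of what these settings change, and no further cause was tested.

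No paired analysis was possible because each genotype had 1 library, and no replicate was left out for the same reason. The depth in reads is unknown.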
